A study of Xenopus laevis with 8 samples.

Results

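The NK homeobox genes nkx2-1, nkx2-2, nkx2-3, nkx2-5 and nkx6-2 were followed in anterior endoderm dissected from Xenopus laevis embryos. They were chosen by the symbol that the array's annotation gives, which picked 9 probe sets of 6 genes (homeologs counted apart) out of 32539 probe sets tested and 11303 named genes. The genes were nkx2-1.L, nkx2-2.S, nkx2-3.L, nkx2-3.S, nkx2-5.S (3 probe sets) and nkx6-2.L (2 probe sets), where .L and .S mark the copies of a gene on the long and short chromosome sets of this allotetraploid frog.

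Every embryo, with or without dexamethasone, had been injected at the 8-cell stage with mRNA for Ngn3-GR in 2 dorsal vegetal blastomeres. Ngn3-GR is the proneural factor Neurogenin 3 fused to a glucocorticoid receptor domain, which keeps it inactive until the steroid dexamethasone is added. The DEX group (4 arrays) received 10 µM dexamethasone for 4 hours from Nieuwkoop and Faber (NF) stage 12, the no_DEX group (4 arrays) received none, and both were dissected at NF stage 15. Embryos given dexamethasone without Ngn3-GR were not analysed here, so effects of the steroid and of the fusion cannot be told apart, and the labels do not say how many embryos made up an array.

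NK2 and NK6 proteins are homeodomain transcription factors that mark territories of the early embryo. In vertebrates nkx2-1 is needed for thyroid, lung and ventral forebrain, nkx2-5 marks the heart field, nkx2-3 marks pharyngeal endoderm and the heart region of frogs, and nkx2-2 and nkx6-2 pattern the ventral neural tube under Sonic hedgehog. In the mouse, nkx2-2 acts downstream of Neurogenin 3 in the endocrine pancreas. The series asked which genes were higher once the fusion was active.

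Values were log2 signals normalized by the authors with RMA, array medians lay between 6.02 and 6.12, and 17 control probe sets for tags absent from the sample reached at most 4.40, taken here as the limit of array background. Of 20 endoderm markers measured, 19 had means above that limit and hhex.L did not. Of the markers of other tissues, 17 of 18 neural plate and 14 of 19 skeletal muscle genes lay above the limit. So did 11 of 11 notochord and floor plate genes and 20 of 20 epidermal, cement gland or hatching gland genes. Of all 11303 named genes 8925 lay above it, so a signal above the limit does not by itself show that a tissue was present. Of 8 cardiac genes, hand1.L and, barely, myh6.S (mean 4.41) lay above the limit and tbx5.L, tbx5.S, tbx20.L, tnni3.L, tnni3.S and tnnt2.L did not. Arrays with the same replicate number deviated from their group means together, with correlations between 0.63 and 0.78, so the numbers were taken as pairs and each change is given with and without the replicate number as a block.

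With dexamethasone, nkx2-1.L and nkx2-5.S fell when the replicate number was a block, and the other 4 genes had mean changes below 0 without passing. Of these, nkx2-2.S was lower in only 2 of 4 pairs. All 9 probe sets had a mean change below 0, against 49.2% of all probe sets tested. The members were chosen with earlier results of these data known, so the shares of all probe sets give a scale and not a test. In limma's fit with the block, 2 of the 9 passed at an adjusted p under 0.05, both downward, where 0.224% of all probe sets passed downward and 0.329% upward. Without the block 0 of the 9 passed, where 0% of all probe sets passed downward and 0.00615% upward, while 5 of the 9 were lower at an unadjusted p under 0.05, against 2.05% of all. With the block 7 of the 9 were lower at an unadjusted p under 0.05, against 6.11% of all. Probe sets of one gene are not independent measures, so these are not counts of genes. The median change of the 9 was -0.38 on the log2 scale, against 0.002 over all probe sets.

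**Figure D1:**
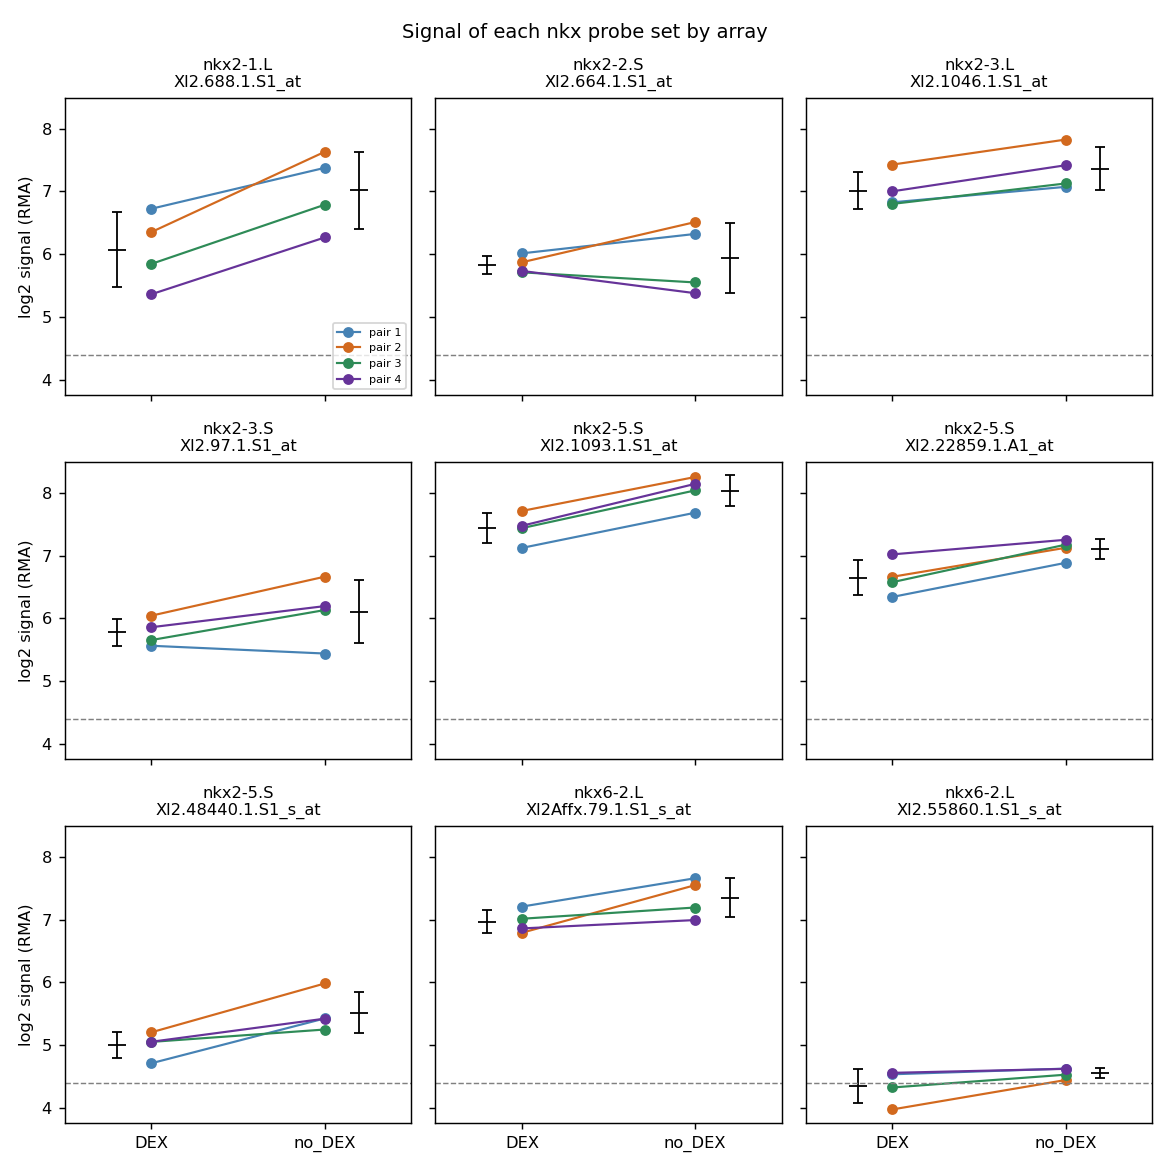
Log2 signal (RMA) of each of the 9 nkx probe sets in DEX (left) and no_DEX (right) arrays, with lines joining arrays of the same replicate number, black bars for the mean ± SD of 4 arrays and a dashed line at the highest absent-tag control, 4.40. The lines of nkx2-1.L and of all nkx2-5.S probe sets are lower at the DEX end in every pair, while those of nkx2-2.S cross, and the dimmer nkx6-2.L probe set lies at the dashed line.

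The foregut and forebrain gene nkx2-1.L showed the widest change. Its probe set Xl2.688.1.S1_at measured 6.72, 6.35, 5.85 and 5.36 in DEX 1 to 4 (arrays by replicate number), against 7.38, 7.63, 6.79 and 6.27 in no_DEX 1 to 4. DEX was lower in every pair, yet the groups overlapped, because pairs 1 and 2 were brighter than pairs 3 and 4 in both groups. The means were 6.07 ± 0.59 in DEX and 7.02 ± 0.61 in no_DEX (SD, n = 4 each), so that the signal with dexamethasone was 52.0% of that without. The log2 change was -0.94 with a standard error of 0.36 without the block (limma adjusted p = 1.00) and 0.11 with it (limma adjusted p = 0.0184). Its 95% interval ran from -1.75 to -0.13 without the block and from -1.19 to -0.70 with it. Only 61 of all probe sets tested, or 0.187%, had a change as low. The pair changes were -0.65, -1.28, -0.94 and -0.90, while the pair means spanned 1.23, more than the change itself. With the block and 1 pair left out, nkx2-1.L passed without pair 1 or 4 and not without pair 2 or 3 (limma adjusted p between 0.0447 and 0.0952).

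The heart field gene nkx2-5.S was measured by 3 probe sets, all lower in 4 of 4 pairs. The brightest, Xl2.1093.1.S1_at, measured 7.12, 7.71, 7.44 and 7.47 in DEX 1 to 4, against 7.68, 8.25, 8.04 and 8.14 in no_DEX 1 to 4. The groups met only where DEX replicate 2, the brightest of its group, exceeded no_DEX replicate 1, the dimmest of its own. The means were 7.44 ± 0.24 in DEX and 8.03 ± 0.25 in no_DEX (SD, n = 4 each), which put DEX at 66.3% of the signal without dexamethasone. The log2 change was -0.59, with a standard error of 0.16 without the block (limma adjusted p = 0.771) and 0.07 with it (limma adjusted p = 0.0247). The pair changes, -0.56, -0.54, -0.60 and -0.67, had an SD of 0.06, the smallest of the 9 probe sets. With the block and any 1 pair left out, the change stayed between -0.61 and -0.57 but the adjusted p (limma, fewer arrays) lay between 0.0592 and 0.131, so it no longer passed.

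The other nkx2-5.S probe sets stood lower without passing. Xl2.22859.1.A1_at measured 6.34, 6.66, 6.58 and 7.02 in DEX 1 to 4, against 6.88, 7.12, 7.17 and 7.25 in no_DEX 1 to 4, a log2 change of -0.46 (limma adjusted p = 0.0819 with the block and 1.00 without it). Xl2.48440.1.S1_s_at, whose suffix marks probes shared between transcripts, measured 4.71, 5.21, 5.05 and 5.06 in DEX 1 to 4, against 5.43, 5.98, 5.25 and 5.42 in no_DEX 1 to 4, a change of -0.51 (0.107 and 1.00). It was the 1 of the 9 whose groups did not overlap, against 1.18% of all probe sets whose DEX arrays all lay below the no_DEX arrays. The 3 probe sets changed by amounts that differed by -0.13, -0.08 and 0.06 between them, with exact two-sided permutation p-values of 0.343, 0.543 and 0.743 over 70 splits of the arrays.

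Both homeologs of nkx2-3 were measured, and both stood lower without passing. For nkx2-3.L (Xl2.1046.1.S1_at) the signals were 6.83, 7.43, 6.80 and 7.00 in DEX 1 to 4, against 7.07, 7.83, 7.13 and 7.42 in no_DEX 1 to 4. Every pair was lower in DEX by a like amount, between -0.25 and -0.42, and the groups overlapped. The log2 change was -0.35 with a standard error of 0.08 with the block (limma adjusted p = 0.109 with the block and 1.00 without), and it was -0.19 without no_DEX replicate 2. Leaving out 1 array leaves its replicate number in 1 group only, so differences between the numbers enter such values. With the block and 1 pair left out, nkx2-3.L stayed between -0.38 and -0.32. For nkx2-3.S (Xl2.97.1.S1_at) the signals were 5.56, 6.04, 5.65 and 5.86 in DEX 1 to 4, against 5.44, 6.66, 6.13 and 6.19 in no_DEX 1 to 4. Pair 1 stood at 0.12, above 0, and the other pairs between -0.62 and -0.34. The mean change of nkx2-3.S was -0.33 (limma adjusted p = 0.319 with the block and 1.00 without it), and it was -0.55 without no_DEX replicate 1 and -0.14 without no_DEX replicate 2. With the block and 1 pair left out, nkx2-3.S lay between -0.48 and -0.23. The changes of the homeologs differed by -0.02, and an exact two-sided permutation test gave p = 0.914.

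Among the ventral neural tube genes, nkx2-2.S had no common direction. Its probe set Xl2.664.1.S1_at measured 6.01, 5.87, 5.71 and 5.74 in DEX 1 to 4, against 6.32, 6.51, 5.55 and 5.38 in no_DEX 1 to 4. DEX was lower in pairs 1 and 2, by -0.31 and -0.64, and higher in pairs 3 and 4, by 0.16 and 0.35. The DEX arrays were close together, with a range of 0.30, whereas the no_DEX arrays spanned 1.13. The mean change was -0.11 (95% interval -0.47 to 0.25 with the block, limma adjusted p = 0.847 with the block and 1.00 without it). It turned above 0 without no_DEX replicate 1 (0.02) or 2 (0.08), and with the block without pair 2 (0.07).

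The nkx6-2.L probe sets both carry the suffix for shared probes. The brighter, whose name starts with Xl2Affx, measured 7.21, 6.79, 7.01 and 6.86 in DEX 1 to 4, against 7.66, 7.55, 7.19 and 6.99 in no_DEX 1 to 4. It was lower in 4 of 4 pairs, most in pair 2 at -0.76 and least in pair 4 at -0.13, with a mean change of -0.38 (limma adjusted p = 0.214 with the block and 1.00 without it). The dimmer, Xl2.55860.1.S1_s_at, had means of 4.35 ± 0.27 in DEX and 4.56 ± 0.09 in no_DEX (SD, n = 4 each), and 2 of its 8 arrays were at or under the highest absent-tag control. Its change was -0.21 (0.415 with the block and 1.00 without it), or -0.08 without DEX replicate 2, and RMA understates changes of signals this weak. With the block and 1 pair left out, the change of this dimmer probe set lay between -0.25 and -0.12.

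**Figure D2:**
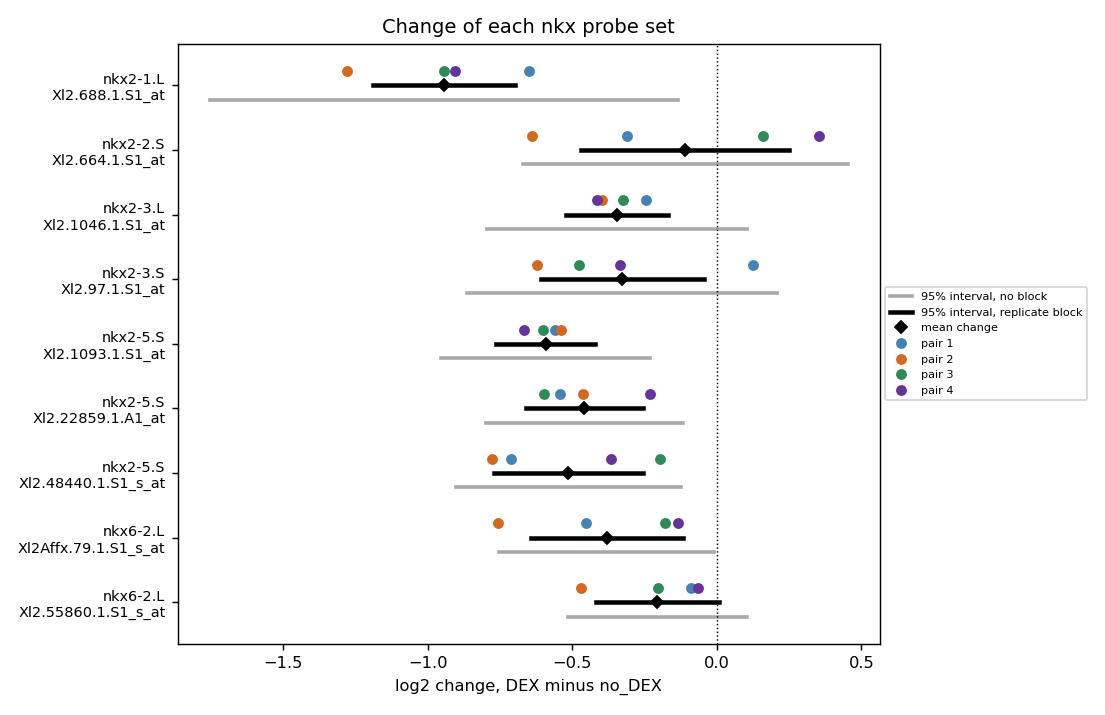
Log2 change (DEX minus no_DEX) of the 9 nkx probe sets: coloured points are the 4 pairs, the diamond is the mean, and black and grey lines are limma's 95% intervals with and without the replicate block, not adjusted for the number of probe sets. The pairs of the brightest nkx2-5.S probe set lie between -0.67 and -0.54, while those of nkx2-2.S run from -0.64 to 0.35.

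Of the 9 probe sets, 7 were lower in 4 of 4 pairs, as were 10.3% of all probe sets. For 8 of the 9, the exception being the brightest nkx2-5.S probe set, the pair means spanned more than the size of the change. The pairs did not rank alike in the members: pair 1 had the highest mean of nkx2-1.L, at 7.05, and the lowest of the brightest nkx2-5.S probe set, at 7.40. Pair 2 had the highest means of nkx2-3.L (7.63), nkx2-3.S (6.35) and the brightest nkx2-5.S probe set (7.98).

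Whether members changed by different amounts was tested on the within-array difference of each 2 probe sets, for 15 pairs of genes and 4 pairs of probe sets of one gene, 19 in all. By the exact two-sided permutation test 0 of the 19 passed after Benjamini-Hochberg adjustment (smallest adjusted p = 0.543), and 1 had an unadjusted p under 0.05. With 70 splits, 11 of the 19 would have had to share the smallest possible p for any to pass, so the adjusted threshold was all but out of reach. The splits also ignored the replicate numbers, so differences between them entered the spread. A large p therefore does not show that 2 members changed alike. The 1 with an unadjusted p under 0.05 was nkx2-1.L against nkx2-2.S, with a difference in change of -0.84 that had the same direction in 4 of 4 pairs (exact permutation p = 0.0286, the smallest that 70 splits allow). The change of nkx2-1.L was also lower in 4 of 4 pairs than that of each other member gene. The differences were -0.62 for nkx2-3.S and -0.60 for nkx2-3.L (p = 0.286 each by the exact permutation test). They were -0.56 for nkx6-2.L (p = 0.143 likewise exact) and -0.35 for nkx2-5.S (p = 0.486 likewise exact). For nkx2-1.L against nkx2-5.S the differences by pair ran from -0.74 to -0.09. A common direction in 4 of 4 pairs was not particular to nkx2-1.L. In every pair the change of nkx2-5.S was lower than that of nkx2-3.L, and that of nkx6-2.L lower than that of nkx2-2.S. Within nkx2-5.S the brightest probe set changed more than the second in every pair.

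Markers of the dissected endoderm and of its neighbours were read over the same arrays. For comparison, 6.31% of all named genes were lower and 7.71% higher at an unadjusted p under 0.05 with the block. In that fit 34 of the 11303 named genes fell and 49 rose past the adjusted threshold. Of the 20 endoderm genes 0 passed in limma's fit with or without the block, and at an unadjusted p under 0.05 with the block 1 was lower and 6 were higher. Their mean log2 level ranged from 8.52 to 8.83 in DEX arrays and from 7.84 to 8.81 in no_DEX arrays, with pair changes of 0.70, 0.03, 0.004 and 0.02. The array no_DEX replicate 1 stood apart at 7.84. It was also the array with the lowest nkx2-3.S signal, 5.44, but no other member probe set was lowest there. Within the no_DEX group that array was the lowest for nkx2-3.L (7.07) and the brightest nkx2-5.S probe set (7.68) and not for nkx2-1.L (7.38). Of the 19 skeletal muscle genes 0 passed in either fit, and at an unadjusted p under 0.05 with the block 14 were lower and 0 higher. Their mean ranged from 5.38 to 6.29 in DEX arrays and from 5.07 to 7.28 in no_DEX arrays, with pair changes of -0.87, -1.57, -1.10 and 0.30. Of the 18 neural plate genes 1 rose with the block, the neuronal RNA-binding protein gene elavl3.L (log2 change 0.88, limma adjusted p = 0.0350), and 0 passed without it. Most stood the other way: 15 of the 18 had a change below 0. At an unadjusted p under 0.05 with the block 7 were lower and 2 higher. The mean of the neural plate genes ranged from 8.38 to 8.81 in DEX arrays and from 8.62 to 9.04 in no_DEX arrays, with pair changes of 0.07, -0.23, -0.11 and -0.24. Of the 11 notochord and floor plate genes 1 fell with the block, shh.L, which the foregut list also holds. At an unadjusted p under 0.05 with the block 5 of the 11 were lower and 2 higher. Both foxa4.L, at 0.81, and foxa4.S, at 0.67, were lower in 0 of 4 pairs without passing (limma adjusted p = 0.0537 and 0.0959 with the block). The mean of the 11 genes ranged from 7.96 to 8.18 in DEX and from 7.90 to 8.47 in no_DEX, and its pair changes were 0.06, -0.20, -0.40 and 0.08. Of the 8 cardiac genes (2 above background) 0 passed in either fit, and 0 were lower and 0 higher at an unadjusted p under 0.05 with the block. Their mean had pair changes of 0.12, 0.008, 0.11 and -0.07. Of the 20 epidermal, cement gland or hatching gland genes 0 passed in either fit, and 0 were lower and 2 higher at that unadjusted p. Their mean had pair changes of 0.12, 0.08, -0.04 and 0.06. The part of neighbouring tissue in the nkx changes was not tested, and in dissected tissue fewer cells of a type and less RNA per cell cannot be told apart.

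Genes of the territories that the members mark were read beside them from lists that left the members out. These lists too were chosen with earlier results of these data known, so shares set beside them describe and do not test. Of 38 measured thyroid, lung and foregut genes (33 above background), 0 passed without the block. In that fit 6 were lower and 2 higher at an unadjusted p under 0.05 (15.8% and 5.26%, against 2.09% and 2.71% of all named genes). With the block 2 of the 38 fell and 0 rose, where 34 of all 11303 named genes fell and 49 rose. The 2 were shh.L, encoding the Sonic hedgehog ligand, at a log2 change of -0.94 (6.88 ± 0.36 in DEX and 7.82 ± 0.39 in no_DEX, SD, n = 4 each; limma adjusted p = 0.0156 with the block), and cebpa.S, a liver and myeloid factor gene, at -0.66 (0.0499). The widest difference was in cer1.S, a secreted antagonist of anterior endoderm, which stood at 1.05 without passing (0.0959 with the block). The list median was -0.12, against 0.006 over all named genes, and 39.5% of the list was lower in 4 of 4 pairs, against 10.8% of all named genes.

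The partners of nkx2-1 in the thyroid primordium and of nkx2-5 in the heart field were looked up from these lists after the values were seen. Of the thyroid genes, hhex.L stood at -0.57 from a mean of 4.00, under the background limit (limma adjusted p = 0.0663 with the block). The gene foxe1.L stood at -0.23 and pax8.L, whose mean of 4.42 lay barely above the limit, at 0.09. The GATA factor genes that act with nkx2-5 ranged from -0.19 for gata4.L to 0.20 for gata6.S. The gene hand2.S, a bHLH factor gene of heart and lateral mesoderm, stood at -0.52 (limma adjusted p = 0.0844 with the block). Its homeolog hand2.L, under the background limit, stood at -0.08, and hand1.L stood at 0.11. The genes tbx5.L, tbx5.S and tbx20.L, all under that limit, stood at 0.13, -0.03 and -0.05. None of these passed in either fit.

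Of 49 measured early heart genes (31 above background), 0 passed in limma's fit with or without the block. At an unadjusted p under 0.05, 5 were lower and 5 higher with the block, and 2 and 2 without it. The counts without the block were 4.08% each way, against 2.09% lower and 2.71% higher of all named genes. Those 5 of 49 were 10.2% each way, where with the block 6.31% of all named genes were lower and 7.71% higher. The widest differences were in muscle genes that heart and somite share, smyd1.L, a muscle methyltransferase gene, at -0.81 and the cardiac actin gene actc1.L at -0.77, and both were lower in 3 of 4 pairs (limma adjusted p = 0.238 and 0.209 with the block). The median was 0.05, and 8.16% of the list was lower in 4 of 4 pairs, against 10.8% of all named genes.

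Of 33 measured genes of ventral forebrain, floor plate and ventral neural tube (25 above background), 3 fell with the block, 0 rose and 0 passed without it. At an unadjusted p under 0.05 without the block 9 were lower, or 27.3%, and 0 higher, against 2.09% and 2.71% of all named genes. The 3 were six6.L, a retinal and hypothalamic homeobox gene, at -1.13 (limma adjusted p = 0.0389 with the block), shh.L, which both lists hold, and the forkhead gene foxd1.L at -0.62 (0.0328). The median of this list was -0.17, and 33.3% of it was lower in 4 of 4 pairs, against 10.8% of all named genes. The list also holds 9 measured genes of hedgehog reception, signal transfer and Gli factors, a grouping made after the values were seen. Of these 0 passed in either fit, and 3 were lower at an unadjusted p under 0.05 with the block, against 6.31% of all named genes. In 4 of 4 pairs 3 of the 9 were lower. Of the 9, 7 were below 0, as were 5415 of 11303 named genes. The changes ran from hhip.L at -0.50, under the background limit, gli2.L at -0.34 and gli3.L at -0.26 to the receptor gene ptch1.S at 0.002 and gli1.S, also under the limit, at 0.004.

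**Figure D3:**
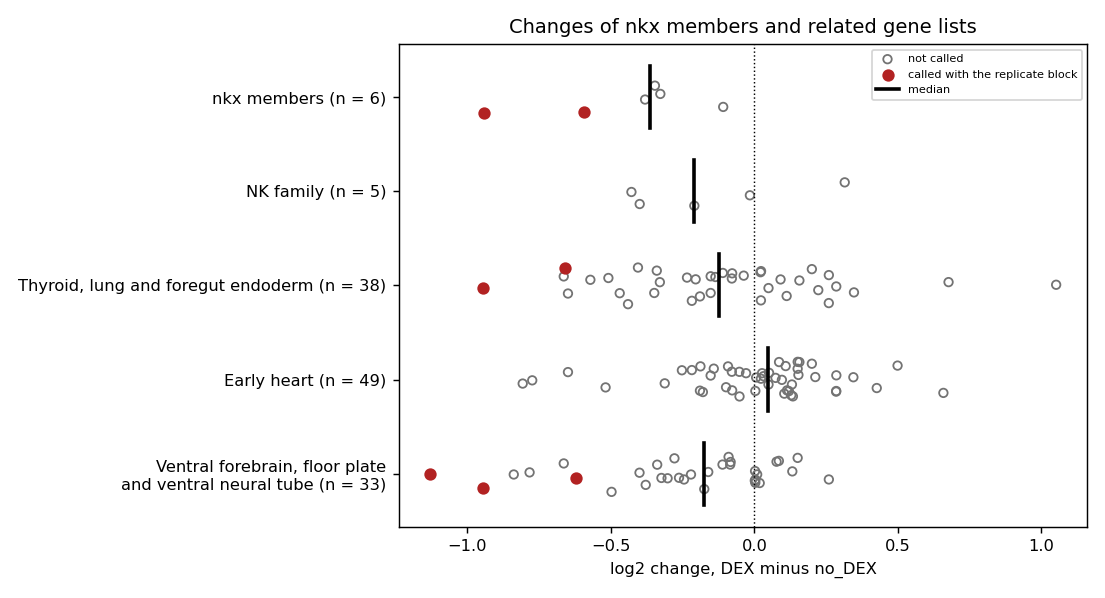
Log2 change (DEX minus no_DEX) of the probe set that stands for each of the 6 nkx genes and for each measured gene of the 4 lists, 1 point a gene, filled where limma called it with the replicate block; black bars are medians. The nkx median is -0.36, and the called points, 2 of the 6 nkx genes among them, all lie below 0.

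The genes most like nkx2-1.L over the 8 arrays were found by the root mean square difference between profiles, each with its own mean taken off, among 1621 other named genes above background whose signal spanned at least 1 on the log2 scale. They were mab21l2.S, a gene of eye and midbrain development (0.18), en2.L, a midbrain-hindbrain boundary gene (0.18), tubb3.L, a neuronal tubulin gene (0.19), asb12.2.L (0.21) and nr2e1.S, the Tailless receptor gene of forebrain and eye (0.21), against a spread of 0.70 in nkx2-1.L itself. Their changes lay between -0.98 and -0.63. With the block mab21l2.S (limma adjusted p = 0.0308), tubb3.L (0.0234) and nr2e1.S (0.0308) passed, and en2.L and asb12.2.L did not. For nkx2-5.S the 5 genes most alike were gcnt1.S (0.15), the ETS factor gene fli1.S of endothelium and blood (0.16), the kininogen gene kng1.L (0.16), the organizer gene gsc.S (0.17) and hand2.S (0.18), against a spread of 0.36. None of these 5 passed with the block, and their changes lay between -0.55 and -0.40. The measure takes in the differences between replicate numbers as well as the change, so like changes follow from how the genes were chosen.

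**Figure D4:**
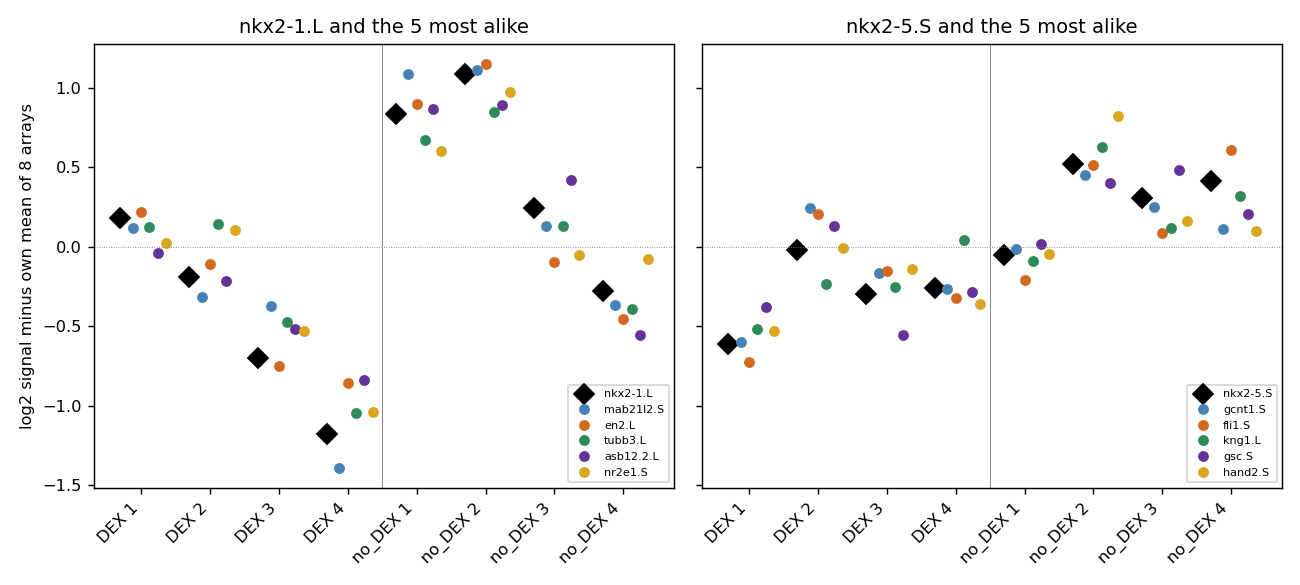
Log2 signal of each array minus the gene's own mean of the 8 arrays, for nkx2-1.L (left, black diamonds) and nkx2-5.S (right, black diamonds) with the 5 genes most like each (coloured points). DEX arrays stand left of the grey line and no_DEX arrays right of it, and DEX replicate 4 is lowest for nkx2-1.L while DEX replicate 1 is lowest for nkx2-5.S.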

How the data were processed

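The deposited table held log2 values, 1 column for each of 8 arrays, which the authors made with RMA per the submitters' processing notes (version not given in the sources used here). Of 32635 probe sets, 96 Affymetrix controls were left out and 32539 tested. Symbols came from the platform annotation (1 symbol for 15495 probe sets) and were updated through the gene table of Xenopus_laevis_v10.1. The probe set with the highest mean stood for a gene. The unit is a log2 signal that cannot be compared in level between probe sets.

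Groups were compared with limma 3.58.1 under R 4.3.3 by lmFit with eBayes (two-sided tests, p-values adjusted by Benjamini-Hochberg across all tested probe sets, threshold 0.05), without a block as the main fit and with the replicate number as a block. Pairing was judged from each array's deviation from its group mean: same-numbered arrays correlated at 0.63, 0.78, 0.77 and 0.69, different numbers at most at 0.20, against a limit of 0.1, and no label says what a number marks. The p-values measure the spread between these arrays, which the labels call biological replicates. Differences between probe sets were tested with scipy 1.17.1 by exact permutation. The fits were also run on simulated data, and the outcome is not given here.

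By rule the text names all member probe sets, the listed genes that passed in either fit, the 2 widest changes of each list, and up to 5 genes most like a member. Outside that rule it names further marker genes such as foxa4.L and foxa4.S, other NK genes and gene neighbours. It also names thyroid and heart partners and hedgehog pathway genes, which were picked after the values were seen. Members and lists were chosen with earlier results of these data known. No sequences were used here.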

Additional observations from a re-analysis of the deposited data

How the results depend on the processing

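With the replicate block in place of no block, 107 probe sets were called higher and 73 lower instead of 2 and 0, the nkx probe sets called lower went to 2 instead of 0, and calls in the foregut and ventral neural lists went to 2 and 3 lower instead of 0. Settings combined with the block, chosen after seeing the data, gave 2 nkx calls each, with 97 higher and 72 lower (medians centred), 102 and 82 (quantile normalized again), 89 and 61 (dim probe sets left out) and 142 and 92 (intensity trend). Without the block, those 4 settings left the counts at 2, 0 and 0. Leaving out 1 array gave 0 to 2 higher and 0 to 1 lower, the 1 without no_DEX replicate 4, with 0 nkx calls, and leaving out pairs 1 to 4 in turn with the block gave 22, 4, 17 and 47 higher, 12, 0, 9 and 73 lower, and 1, 0, 0 and 1 nkx calls. In these fits nkx2-2.S ranged from -0.296 to 0.082, above 0 without no_DEX replicate 1 (0.019) or 2, and without pair 2 with the block (0.069), and the other 8 nkx probe sets stayed below 0. None of the 19 differences between probe sets passed under any setting tried. Sign flips within the 4 pairs can give no p below 0.125. The splits of the arrays that remain when 1 is left out are too few for an exact p under 0.05. Neither kind of setting could therefore have passed any of the 19 differences. With 1 array left out, 5 of them changed sign: nkx2-3.L minus nkx6-2.L (-0.17 to 0.18), nkx2-3.S minus nkx6-2.L (-0.27 to 0.21), nkx2-3.L minus nkx2-3.S (-0.10 to 0.11), and, within nkx2-5.S, the second minus the dimmest probe set (-0.094 to 0.17) and the brightest minus the dimmest (-0.16 to 0.015). Leaving out 1 array leaves its replicate number in 1 group only, so differences between the numbers can enter these values. The cause of the sign changes was not tested. With 4 arrays a group, and signals near 4.40 compressed, small changes of dim probe sets could not be detected.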

Other observations

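The other NK genes measured were nkx2-4.L, nkx2-4.S, nkx2-6.L, nkx3-3.S and nkx1-2.L, and 0 of these 5 passed in limma's fit with or without the block. At an unadjusted p under 0.05 without the block 1 was lower, against 2.09% of all named genes. With the block 2 were lower, nkx2-4.L (limma unadjusted p = 0.0027) and nkx2-4.S (0.028), against 6.31% of all named genes. In the gene table the protein-coding neighbours of nkx2-2.S are nkx2-4.S, a close relative of nkx2-1, and pax1.S. The nkx2-4.S signal was 5.60 ± 0.34 in DEX and 6.00 ± 0.42 in no_DEX (SD, n = 4 each), a log2 change of -0.40 that was below 0 in 3 of 4 pairs. For comparison, nkx2-2.S stood at -0.11, and pax1.S, with a mean of 4.07 below the highest absent-tag control, stood at 0.06. The homeolog nkx2-4.L of nkx2-4.S stood at -0.43 at a mean level of 3.40, also below that control. The neighbours of nkx2-3.S (-0.33) are nkx3-3.S, at -0.02, and got1.S, at 0.23 and lower in 0 of 4 pairs. The measured neighbour of nkx2-5.S, bnip1.S, stood at -0.15. The mean of bnip1.S, 4.24, lay below the highest absent-tag control and that of nkx3-3.S, 4.44, just above it, so small changes of these genes could be missed. None of these 5 neighbours passed in either fit. The heart and pharynx gene nkx2-6.L stood at -0.21 and nkx1-2.L at 0.31 from a mean of 3.49, under the limit of background.

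For the members that did not pass, the most alike profile was igf3.L for nkx2-2.S (root mean square difference 0.12), hao2.S for nkx2-3.L (0.10), b4galt5.L for nkx2-3.S (0.13) and schip1.S for nkx6-2.L (0.11). The homeolog nkx2-3.L was the fifth most alike of nkx2-3.S (0.18 over 8 arrays). None of these profiles passed with the block.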
